A study of Mus musculus with 4 samples.

Results

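Rasgrf1, Impact, Inpp5f, Igf2r, Airn, Plagl1, Grb10, Zdbf2, Slc38a4 and Zrsr1 are imprinted mouse genes at small loci on several chromosomes. They were taken by symbol from a table of RNA sequencing reads per gene, which held each of the 10 symbols once among 31247 genes. The table compares lung cells labelled as a Dnmt1 conditional knockout (CKO) with wild-type (WT) cells, from mice on postnatal day 7. Cells that carried a Pdgfrb-GFP reporter, called myofibroblasts in the labels, were collected by fluorescence sorting after the blood had been rinsed from the lungs. The CKO genotype combines Tbx4-rtTA, Tet-O-Cre and the Dnmt1-D/D alleles with the PDGFRb-GFP reporter, and the WT genotype is wild type with that reporter, with 2 libraries of each. The Tbx4-rtTA transgene is a doxycycline-dependent activator used to switch on Tet-O-Cre in lung mesenchyme, and the labels list neither transgene for WT, so the transgenes and the loss of Dnmt1 cannot be told apart. The labels used here do not give the induction dates, and both genotypes carried the GFP reporter.

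An imprinted gene is transcribed mainly from the copy inherited from a single parent, and the copies are told apart by DNA methylation that is set in the egg or the sperm and copied at each cell division by the maintenance enzyme Dnmt1. In mouse, Impact, Plagl1, Zrsr1 and Airn are transcribed from the paternal copy while their promoters are methylated on the maternal copy. Igf2r and Grb10 are transcribed mainly from the maternal copy, which is methylated at an island inside the gene, and for Igf2r that island is the promoter of Airn, whose transcription silences the paternal copy of Igf2r. Rasgrf1 and Zdbf2 are grouped here by methylation upstream on the paternal copy, the one that is transcribed. When that methylation is set was not considered in the grouping. Slc38a4 is a paternally expressed gene whose imprint in the early mouse embryo is tied to histone H3K27 methylation on the maternal copy. Mouse embryos without Dnmt1 are known to lose Igf2r and Igf2 transcripts and to transcribe H19 from both copies. The read counts do not separate the parental copies, and methylation was not part of the data used here, so each gene is described by its total level.

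The start-site windows of 5 of the genes are shown for their change or their sequence. Whether a window lies in the methylated region of its locus was not read. Sequences are from RefSeq on GRCm38.p6, run from 250 bases before to 50 bases after a start, and are written 5′ to 3′ on the strand of the gene. Windows were found for 9 of the 10 genes, and for 13 starts in all. The Rasgrf1 window (chr9:89909525-89909824, plus strand) is that of the gene with the largest fall among the 10. The Zrsr1 window (chr11:22971755-22972054, plus strand) belongs to a gene known to be methylated at its promoter on the maternal copy. In both, capitals mark CpG dinucleotides, the positions that Dnmt1 maintains.
Rasgrf1: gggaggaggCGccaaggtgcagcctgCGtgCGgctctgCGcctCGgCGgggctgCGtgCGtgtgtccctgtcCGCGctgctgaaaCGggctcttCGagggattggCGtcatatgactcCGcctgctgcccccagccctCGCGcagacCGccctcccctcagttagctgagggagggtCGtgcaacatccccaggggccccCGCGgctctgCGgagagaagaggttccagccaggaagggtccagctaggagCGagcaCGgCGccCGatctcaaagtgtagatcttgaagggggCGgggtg
Zrsr1: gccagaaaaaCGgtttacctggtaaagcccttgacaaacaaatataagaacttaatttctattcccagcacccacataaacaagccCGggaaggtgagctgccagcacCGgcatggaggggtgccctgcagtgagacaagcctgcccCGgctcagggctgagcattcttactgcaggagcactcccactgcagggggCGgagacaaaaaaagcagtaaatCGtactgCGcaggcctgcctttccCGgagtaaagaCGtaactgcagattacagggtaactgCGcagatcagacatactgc

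The Rasgrf1 window held 26 CpG dinucleotides, and 16.9% of all 32851 RefSeq windows held at least as many. The Zrsr1 window held 10, and 43.5% of windows held at least as many, against a median of 7 over all windows. The window of the Igf2r start held 34, that of the main Grb10 start 45 and that of Airn 3. In the next 3 windows capitals mark the hexamer TGCCGC, the core that the imprint-protecting zinc finger protein Zfp57 is known to bind when methylated, and its reverse complement GCGGCA. They are the Plagl1 window (chr10:13090582-13090881, plus strand), the main Grb10 window (chr11:12037371-12037670, minus strand) and a Zdbf2 window at an upstream start (chr1:63200108-63200407, plus strand).
Plagl1: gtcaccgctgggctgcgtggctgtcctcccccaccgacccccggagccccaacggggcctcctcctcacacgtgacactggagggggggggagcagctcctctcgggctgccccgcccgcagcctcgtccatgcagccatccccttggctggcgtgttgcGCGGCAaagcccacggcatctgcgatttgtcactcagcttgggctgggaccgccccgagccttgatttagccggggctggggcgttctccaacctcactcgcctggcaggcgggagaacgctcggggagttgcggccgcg
Grb10: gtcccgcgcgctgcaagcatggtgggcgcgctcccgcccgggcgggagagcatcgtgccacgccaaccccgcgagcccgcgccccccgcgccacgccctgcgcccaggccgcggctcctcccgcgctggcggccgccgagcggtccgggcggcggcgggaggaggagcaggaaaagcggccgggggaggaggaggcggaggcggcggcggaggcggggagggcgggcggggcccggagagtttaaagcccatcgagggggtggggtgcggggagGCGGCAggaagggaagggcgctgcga
Zdbf2: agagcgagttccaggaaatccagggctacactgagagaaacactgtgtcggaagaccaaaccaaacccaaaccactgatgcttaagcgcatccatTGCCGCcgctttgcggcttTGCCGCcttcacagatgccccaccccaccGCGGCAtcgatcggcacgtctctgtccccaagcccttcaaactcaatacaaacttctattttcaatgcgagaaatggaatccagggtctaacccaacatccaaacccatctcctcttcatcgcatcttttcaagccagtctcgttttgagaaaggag

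The hexamer, searched on both strands, was present in 3 of the 13 windows, against 11.6% of all RefSeq windows. The Zdbf2 window held 3 matches, and the Plagl1 and Grb10 windows held 1 each. The other Grb10 window, at an internal start (chr11:12027922-12028221), held 9 CpG dinucleotides and 0 matches. The other Zdbf2 window held 38 CpG dinucleotides and 0 matches. A match is a string of letters, and none of the windows was tested for binding or methylation. The printed Zdbf2 window lies within the annotated span of Gpr1 (chr1:63182691-63214543). Which parental copy is methylated at that window was not read, and it is not taken as the paternally methylated region.

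Levels are in CPM, the count of a gene relative to the TMM-scaled total of its library. Counted reads were 26420648 in CKO A and 23581186 in CKO B, against 23071657 in WT A and 25709717 in WT B. WT B had reads on 27643 genes, against 21883 to 22532 in the other 3 libraries. Dnmt1, the gene that the mutation targets, stood at 78.1 CPM in CKO A and 29.5 CPM in CKO B, against 144 CPM in WT A and 115 CPM in WT B. The CKO libraries thus kept 60.3% and 22.8% of the mean WT level, and the fall of 1.27 ± 0.57 (SE) on the log2 scale missed the threshold over all genes (adjusted p = 0.31, edgeR's quasi-likelihood test). Without CKO A the adjusted p was 3.82e-05, and without CKO B it was 0.0401. The authors' deposited table gives Dnmt1 a log2 change of -1.23 with an adjusted p of 0.029. Reads were counted per gene, so transcripts of intact and of mutated Dnmt1 copies were not told apart. Pdgfrb had 374 and 317 CPM in the CKO libraries and 507 and 477 CPM in the WT libraries (adjusted p = 0.0546, edgeR's quasi-likelihood test). CKO A held 4444 reads of 4 Y-linked genes and the other 3 libraries held 0. Summed markers of the mesenchyme were 55674 and 60767 CPM in CKO and 46777 and 46476 CPM in WT, with 0 of 9 genes called. Eln (36229.7 and 35532 CPM in CKO, 27965 and 30122 CPM in WT) and Col1a1 held most of these sums. Both lay above WT without overlap, while Pdgfra, Pdgfrb and Myh11 lay below it without overlap. Pdgfra had 406 and 324 CPM in CKO and 596 and 511 CPM in WT. Fgf18, Acta2, Tagln and Hhip overlapped between the genotypes. Immune markers, 8 in all, summed to 41.2 and 33.4 CPM in CKO and 18.0 and 23.4 CPM in WT, with Cd74 and Laptm5 higher in CKO and none at 0 in any library. Cd74 alone had 20.1 and 15.9 CPM in CKO and 4.65 and 7.47 CPM in WT. Tyrobp, Adgre1 and Ptprc, not called, also lay above WT without overlap. Cd68 and Cd79a, not called, lay below WT without overlap, and Cd3e overlapped. Summed endothelial markers, 6 in all, were 156 and 85.5 CPM in CKO and 73.7 and 108 CPM in WT, and 6 epithelial markers summed to 105 and 39.8 CPM in CKO and 41.8 and 110 CPM in WT, with none called. Summed erythroid markers, 5 in all, were 14.0 and 7.42 CPM in CKO and 22.8 and 30.2 CPM in WT, with Hba-a1 and Hba-a2 lower in CKO. Summed pericyte markers, 5 in all, were 295 and 400.3 CPM in CKO and 269.7 and 241 CPM in WT, with none called. Notch3, Abcc9 and Kcnj8 lay above WT without overlap, and Cspg4 overlapped. Higd1b lay below WT without overlap, at 0.723 and 0.647 CPM in CKO and 1.27 and 1.92 CPM in WT. The Schwann cell marker Sox10 was at 0 in both WT libraries. The part of these other cells in the results was not tested, and in sorted bulk cells fewer cells of a type and less RNA per cell cannot be told apart.

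All 10 imprinted genes had enough reads to be tested. Impact was higher in CKO cells, and Rasgrf1 and Inpp5f were lower, while the other 7 did not pass the threshold of 0.05 on the adjusted p (edgeR's quasi-likelihood test). These 3 calls among 10 genes stand beside 7.61% of all 15210 tested genes called in either direction, 4.85% called higher and 2.75% called lower. The log2 change was below 0 for 8 of the 10 genes, with a median of -0.28 against -0.01 over all tested genes. In 6 of the 10 the CKO and WT libraries did not overlap, against 57.1% of all tested genes, so that a lack of overlap was common in this comparison. CKO lay below WT without overlap in 4 of the 10, against 29.3% of all tested genes. Unadjusted p-values fell under 0.05 for the same 6, which included Grb10, Zrsr1 and Slc38a4 beside the called genes, against 25.2% of all tested genes.

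**Figure D1:**
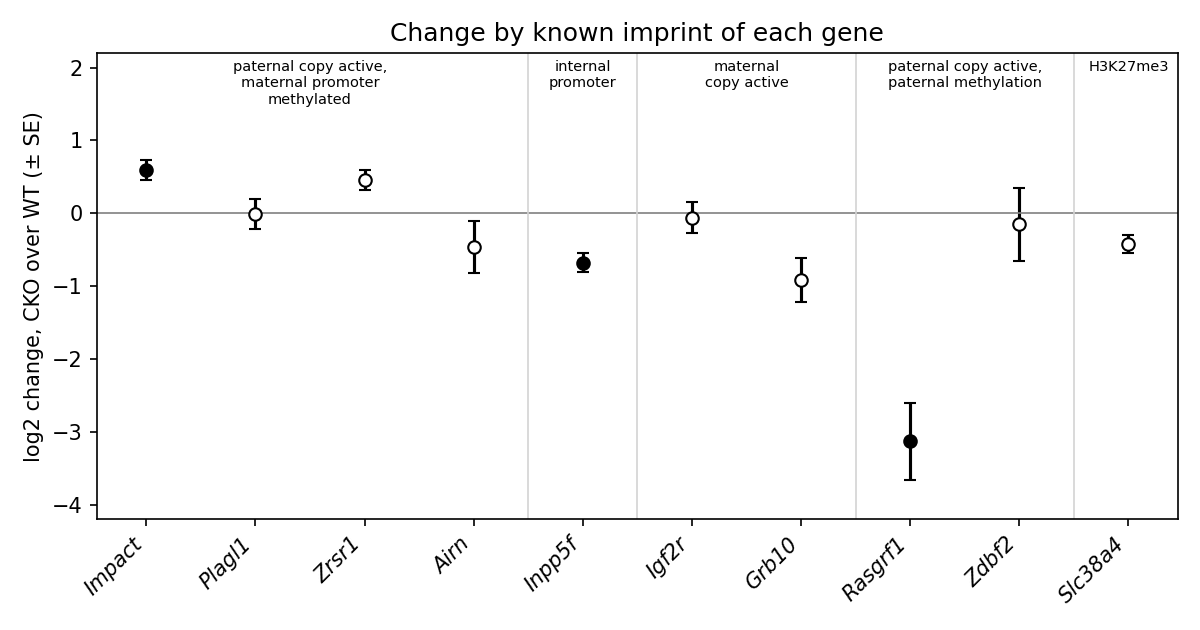
Log2 change of each imprinted gene in CKO against WT cells, with bars of 1 standard error, grouped by known imprint and filled where the adjusted p was under 0.05. Rasgrf1 lies farthest from 0 at -3.13, Impact lies highest at 0.59, and Igf2r and Plagl1 lie next to 0.

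Impact (ENSMUSG00000024423, chr18:12955852-12992950, plus strand, GRCm38) encodes a protein that binds GCN1 and restrains the amino acid sensing kinase GCN2. It had 928 reads in CKO A and 995 in CKO B, against 636 in WT A and 639 in WT B. In scaled units this was 35.3 and 42.9 CPM in CKO and 27.9 and 24.1 CPM in WT. Both CKO libraries lay above both WT libraries. The mean was 39.1 ± 5.37 CPM in CKO and 26.0 ± 2.7 CPM in WT (SD, n = 2 each), a 1.5-fold difference, or 0.59 ± 0.14 (SE) on the log2 scale, with an adjusted p of 0.0449 (edgeR's quasi-likelihood test). CKO A stood at 136% and CKO B at 165% of the WT mean. Impact passed the threshold narrowly and in 5 of 12 other settings, with adjusted p-values between 0.000344 and 0.288. It was no longer called without CKO B (0.0936), without WT A (0.0943) or without WT B (0.288).

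Zrsr1 (ENSMUSG00000044068, chr11:22972005-22976496, plus strand) is a retrogene copy of the splicing factor gene Zrsr2 and lies inside Commd1 on the opposite strand. It had 807 and 809 reads in the CKO libraries, against 491 and 690 in the WT libraries. The levels were 30.7 and 34.9 CPM in CKO and 21.6 and 26.0 CPM in WT, and the groups did not overlap. The mean was 32.8 ± 2.96 CPM in CKO and 23.8 ± 3.16 CPM in WT (SD, n = 2 each), a log2 difference of 0.46 ± 0.14 (SE) that was not called (adjusted p = 0.0897, edgeR's quasi-likelihood test). Without CKO A it passed the threshold (adjusted p = 0.0284). Commd1, the host gene, had 10.2 and 8.89 CPM in CKO and 8.08 and 9.39 CPM in WT (log2 difference 0.13 ± 0.19 SE). Whether counting used the strand is unknown from the labels, so reads of the overlapping pair may be shared, and reads of the parent copy Zrsr2 may be too.

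Plagl1 (ENSMUSG00000019817, chr10:13060504-13131694, plus strand) encodes a zinc finger transcription factor that restrains growth. It had 10634 reads in CKO A and 12987 in CKO B, against 12571 in WT A and 11142 in WT B. That was 405 and 560.3 CPM in CKO and 552 and 420.3 CPM in WT, with the groups overlapping fully. The mean was 483 ± 109.9 CPM in CKO and 486 ± 93.1 CPM in WT (SD, n = 2 each), and the log2 difference was -0.01 ± 0.20 (SE; adjusted p = 0.98, edgeR's quasi-likelihood test). The spread between replicates of either genotype exceeded the difference of the means.

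Airn (ENSMUSG00000078247, chr17:12741311-12860136, plus strand) is the long noncoding RNA that starts inside Igf2r and runs antisense to it. It had 215 reads in CKO A and 412 in CKO B, against 384 in WT A and 497 in WT B. In CPM it stood at 8.18 and 17.8 in CKO and at 16.9 and 18.7 in WT, so CKO A was low and CKO B lay between the WT libraries. The log2 difference was -0.46 ± 0.36 (SE), not called (adjusted p = 0.497, edgeR's quasi-likelihood test). It was -1.11 with an adjusted p of 0.00856 when CKO B was left out, and 0.02 when CKO A was left out, so CKO A alone set the direction. Its annotated span overlaps 7 other genes, Igf2r among them over 28354 bases, and without the strand the reads cannot be assigned between them. Among the 4 genes of this kind, 1 was higher, 0 were lower and the median log2 difference was 0.23. Over all tested genes 4.85% were called higher and 2.75% lower, and the median was -0.01.

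**Figure D2:**
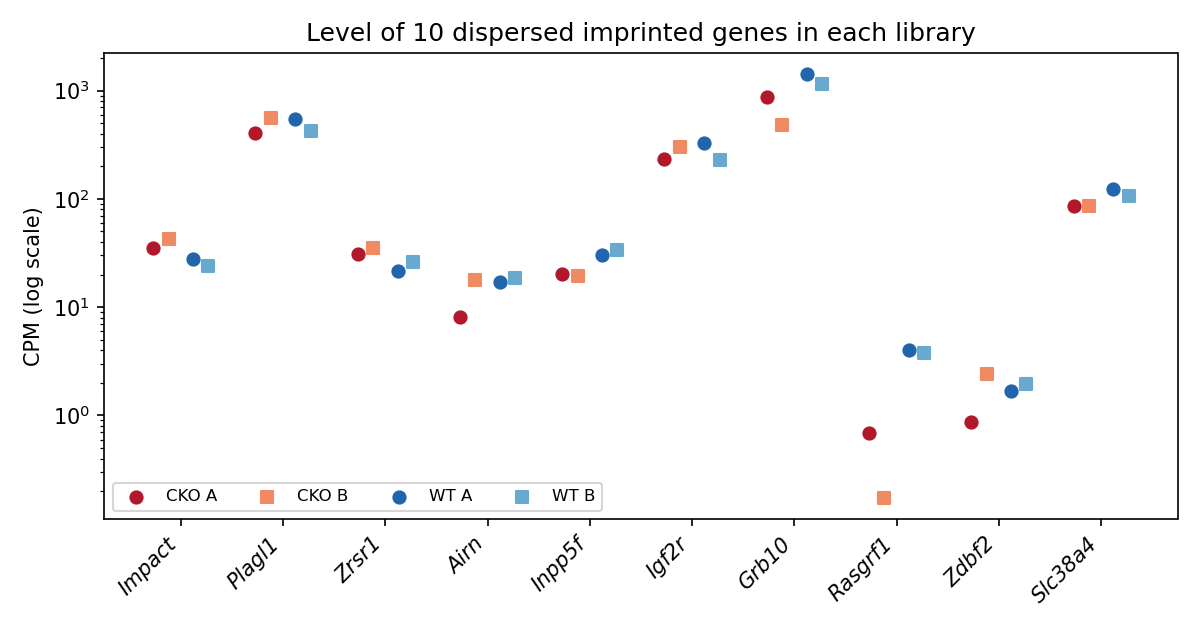
Level of each imprinted gene in each library, in CPM on a log axis, with 1 point per library and the CKO libraries left of the WT libraries. Grb10 has the highest values, from 479.7 to 1416 CPM, Rasgrf1 in CKO B has the lowest at 0.173 CPM, and the groups of Plagl1, Igf2r, Airn and Zdbf2 overlap.

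Inpp5f (ENSMUSG00000042105, chr7:128611328-128696425, plus strand) encodes a phosphoinositide phosphatase of early endosomes, and in mouse a short isoform from an internal promoter is transcribed from the paternal copy while the full-length form is not imprinted. It was lower in CKO cells. It had 535 and 453 reads in the CKO libraries, against 686 and 891 in the WT libraries. The levels were 20.4 and 19.5 CPM in CKO and 30.1 and 33.6 CPM in WT, and the groups did not overlap. The mean was 20.0 ± 0.581 CPM in CKO and 31.9 ± 2.47 CPM in WT (SD, n = 2 each), a fall of 0.68 ± 0.13 (SE) on the log2 scale, or 1.6-fold, with an adjusted p of 0.0206 (edgeR's quasi-likelihood test). Both CKO libraries lay close together, at 63.9% and 61.3% of the WT mean. The call held in 10 of 12 other settings, and was lost without WT A (adjusted p = 0.0657) and without WT B (0.195). Reads were counted per gene, so the imprinted isoform could not be set apart from the full-length form.

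Igf2r (ENSMUSG00000023830, chr17:12682406-12769664, minus strand) encodes the receptor that carries IGF2 and mannose 6-phosphate tagged enzymes to lysosomes. It had 6095 reads in CKO A and 7014 in CKO B, against 7514 in WT A and 6025 in WT B. That was 232 and 303 CPM in CKO and 329.9 and 227 CPM in WT, with both CKO values inside the WT range. The mean was 267 ± 49.9 CPM in CKO and 279 ± 72.6 CPM in WT (SD, n = 2 each), and the log2 difference was -0.06 ± 0.21 (SE; adjusted p = 0.894, edgeR's quasi-likelihood test). The WT libraries differed from each other by more than the means of the genotypes did.

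Grb10 (ENSMUSG00000020176, chr11:11930508-12038683, minus strand) encodes an adaptor that binds the insulin and IGF1 receptors and restrains their signalling. It had 23030 reads in CKO A and 11119 in CKO B, against 32254 in WT A and 30458 in WT B. In CPM it stood at 877 and 479.7 in CKO and at 1416 and 1149 in WT. Both CKO libraries were below both WT libraries, and CKO B was the lower, at 37.4% of the WT mean against 68.4% for CKO A. The mean was 678 ± 281 CPM in CKO and 1283 ± 189 CPM in WT (SD, n = 2 each), a log2 difference of -0.92 ± 0.30 (SE) that was not called (adjusted p = 0.132, edgeR's quasi-likelihood test). Without CKO A the difference was -1.39 with an adjusted p of 0.000562, and with no filter on low counts it was also called (9.72e-07). The authors' deposited table gives -0.88 with an adjusted p of 0.0327 for Grb10, and calls it. Neither maternally expressed gene was called with DESeq2 or limma-voom.

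Rasgrf1 and Zdbf2, whose transcribed paternal copy is the methylated one, are the genes with the fewest reads. Rasgrf1 (ENSMUSG00000032356, chr9:89909908-90026977, plus strand) encodes an exchange factor that activates Ras, and in mouse its imprinted expression affects growth after birth. It had 18 reads in CKO A and 4 in CKO B, against 91 in WT A and 100 in WT B. These reads amount to 0.685 CPM in CKO A (exact Poisson 95% interval 0.406 to 1.08) and 0.173 CPM in CKO B (0.047 to 0.442). They amount to 4.0 CPM in WT A (3.22 to 4.91) and 3.77 CPM in WT B (3.07 to 4.59). Both WT libraries agreed closely, and both CKO libraries lay far below them, with counting intervals that did not meet those of WT. The mean was 0.429 ± 0.362 CPM in CKO and 3.88 ± 0.158 CPM in WT (SD, n = 2 each), an 8.78-fold fall, or -3.13 ± 0.53 (SE) on the log2 scale, with an adjusted p of 0.0149 (edgeR's quasi-likelihood test). Relative to the WT mean, 17.6% was left in CKO A and 4.44% in CKO B. The fall was called in 11 of 12 other settings and ran between -4.42 and -2.48, and it missed the threshold only without WT B (adjusted p = 0.0601).

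Zdbf2 (ENSMUSG00000027520, chr1:63273265-63314576, plus strand) encodes a zinc finger protein whose dosage in the mouse hypothalamus affects growth. It had 23 reads in CKO A and 56 in CKO B, against 38 in WT A and 52 in WT B. That was 0.875 and 2.42 CPM in CKO and 1.67 and 1.96 CPM in WT, so the CKO libraries lay on either side of WT. The log2 difference was -0.15 ± 0.50 (SE; adjusted p = 0.883, edgeR's quasi-likelihood test). The CKO libraries differed from each other by more than the means of the genotypes did. The fall of Rasgrf1 was therefore not matched by a called change in the gene grouped with it here, and the difference between the 2 genes was not tested.

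Slc38a4 (ENSMUSG00000022464, chr15:96994820-97055956, minus strand) encodes a sodium-coupled transporter of neutral amino acids. It had 2247 and 2002 reads in the CKO libraries, against 2816 and 2804 in the WT libraries. The levels were 85.5 and 86.4 CPM in CKO and 124 and 106 CPM in WT, without overlap. The mean was 85.9 ± 0.59 CPM in CKO and 115 ± 12.6 CPM in WT (SD, n = 2 each), a log2 difference of -0.42 ± 0.12 (SE) that was not called (adjusted p = 0.0762, edgeR's quasi-likelihood test). It passed when libraries were scaled by their total reads alone (adjusted p = 0.0493).

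**Figure D3:**
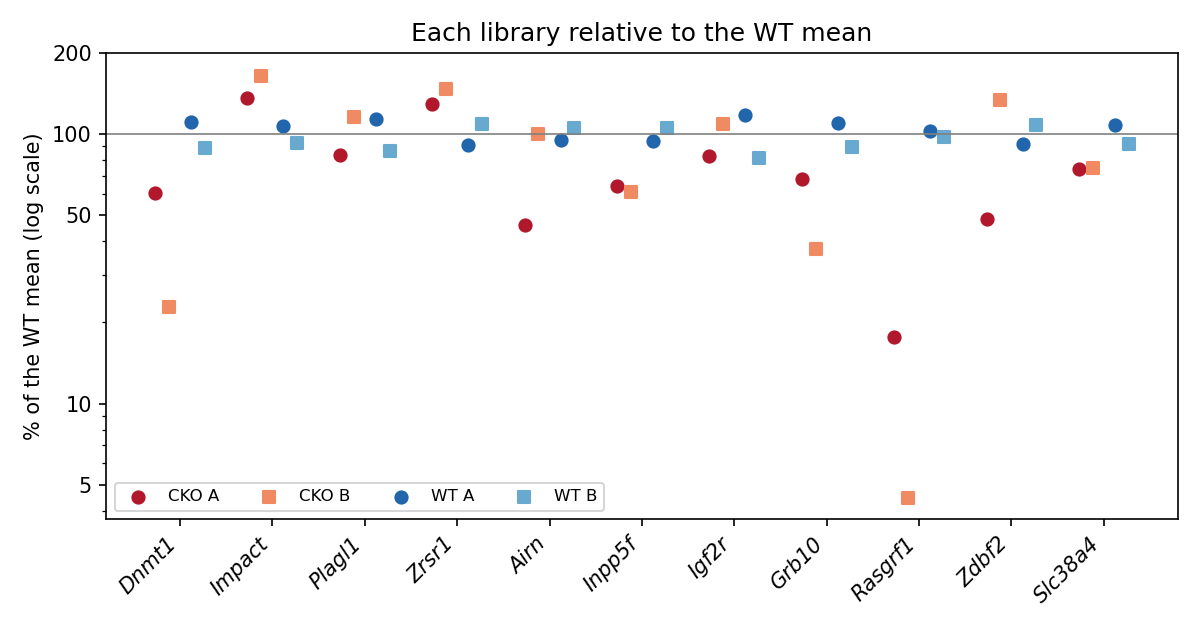
Each library as a percentage of the mean WT level, on a log axis, for Dnmt1 and the 10 imprinted genes, with CKO points left of WT points. Rasgrf1 lies at 17.6% in CKO A and 4.44% in CKO B, Grb10 at 68.4% and 37.4%, and Airn at 46.0% and 99.8%.

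The CKO libraries differed from each other in Dnmt1 level, with CKO B the lower, and their imprinted genes were set side by side for that reason. In 5 of the 10 genes, Grb10, Impact, Inpp5f, Rasgrf1 and Zrsr1, CKO B lay farther than CKO A from the WT mean and on the same side, against 38.0% of all tested genes. For Inpp5f this gap was small, 61.3% in CKO B beside 63.9% in CKO A. In 2 genes, Airn and Slc38a4, CKO A lay farther, and in Igf2r, Plagl1 and Zdbf2 the CKO libraries lay on opposite sides of the WT mean. For Slc38a4 the CKO libraries were nearly equal, at 74.6% in CKO A and 75.3% in CKO B. CKO A was also the library with Y-linked reads, so Dnmt1 level and sex cannot be told apart between these libraries. With autosomal genes alone in the fit, the same 3 genes were called. That fit keeps every library and all 10 genes are autosomal, so it cannot tell sex from Dnmt1 level.

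Levels between genes were compared per kilobase of exon (RPKM). In WT the order was Grb10 at 141 RPKM, Plagl1 at 62.2, Igf2r at 29.9 and Slc38a4 at 26.9, followed by Zrsr1 at 5.29, Impact at 5.07, Airn at 4.95 and Inpp5f at 3.83, with Rasgrf1 at 0.351 and Zdbf2 at 0.144. In CKO the means in RPKM were 74.7 for Grb10, 61.8 for Plagl1, 28.7 for Igf2r and 20.2 for Slc38a4. They were 7.63 for Impact, 7.30 for Zrsr1, 3.61 for Airn, 2.40 for Inpp5f, 0.130 for Zdbf2 and 0.0387 for Rasgrf1. The WT ranges of Igf2r (24.4 to 35.4 RPKM) and Slc38a4 (24.8 to 29.0 RPKM) overlapped, and so did those of Zrsr1 (4.8 to 5.79), Impact (4.7 to 5.44) and Airn (4.69 to 5.21). The order of these neighbours is thus within their spread. Rasgrf1 stood above Zdbf2 in both WT libraries and below it in both CKO libraries, although in CKO A these levels rest on 18 reads of Rasgrf1 and 23 of Zdbf2.

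Genes that protect imprints were described beside them. Zfp57, which binds methylated TGCCGC at imprinted regions, had 27.2 and 23.4 CPM in CKO and 45.9 and 47.2 CPM in WT. It was lower in both CKO libraries, by 0.88 ± 0.12 (SE) on the log2 scale, with an adjusted p of 0.00778 (edgeR's quasi-likelihood test), and was not called without WT B (adjusted p = 0.0574). Its cofactor Trim28 had 282 and 257 CPM in CKO and 269 and 264 CPM in WT. Zfp445, another protector of imprints, had 80.7 and 85.7 CPM in CKO and 92.7 and 90.9 CPM in WT, and neither was called (adjusted p = 0.952 and 0.462 for Trim28 and Zfp445, edgeR's quasi-likelihood test).

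Other imprinted genes were taken from lists by parental copy. Of 22 other genes known to be expressed from the paternal copy, 18 were tested, of which 1 was lower and 0 were higher, and their median log2 difference was 0.14. The gene was Kcnq1ot1, a long noncoding RNA whose promoter is methylated on the maternal copy and which silences its neighbours on the paternal one. It had 14.9 and 17.6 CPM in CKO and 37.5 and 57.5 CPM in WT, without overlap, and fell by 1.55 ± 0.22 (SE) on the log2 scale (adjusted p = 0.0135, edgeR's quasi-likelihood test). It was not called without CKO A (0.129) or without CKO B (0.119). Of 24 genes expressed mainly from the maternal copy in at least some tissues, 18 were tested, and 0 were higher and 1 lower, with a median of 0.23. The gene was Ppp1r9a, which encodes the actin-binding protein neurabin. It had 45.1 and 45.2 CPM in CKO and 88.1 and 95.2 CPM in WT, a fall of 1.02 ± 0.11 (SE) on the log2 scale (adjusted p = 0.0038, edgeR's quasi-likelihood test). H19, a maternally expressed long noncoding RNA named here after its values were seen, had the largest difference in either list. It had 513 and 850 CPM in CKO and 124 and 54.1 CPM in WT, so both CKO libraries lay far above both WT libraries, which also differed from each other. The mean was 681 ± 238 CPM in CKO and 89.2 ± 49.6 CPM in WT (SD, n = 2 each), 7.65-fold or 2.93 ± 0.57 (SE) on the log2 scale, and missed the threshold (adjusted p = 0.0803, edgeR's quasi-likelihood test). It was called with DESeq2 (0.000515), limma-voom (0.0155), robust estimation off (0.0117), without WT A (0.00345) and without WT B (0.0416), and its adjusted p was between 0.0699 and 0.394 in the other 7 settings. Among paternal genes DESeq2 called Mest higher and Nnat and Kcnq1ot1 lower, and limma-voom called Kcnq1ot1. Among maternal genes DESeq2 called H19 and Atp10a higher and Ppp1r9a lower, and limma-voom called H19 and Ppp1r9a. At an unadjusted p under 0.05 there were 5 paternal and 6 maternal genes of 18 each, against 25.2% of all tested genes. In both lists 5.56% of the tested genes were called, against 7.61% over all genes.

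Genes known to work with the 10 and genes of related families were listed for 8 of them, 57 in all. Both kinds are called partners here, and those of Slc38a4 are all members of its family. Of these, 51 were tested. Calls were made for 5 (9.8%), 2 higher and 3 lower, and the median log2 difference was -0.02. Over all tested genes 7.61% were called and the median was -0.01. The calls fell among the partners of Igf2r, 3 of 8, and of Slc38a4, 2 of 7. Igf1r, the receptor through which IGF2 signals, had 96.5 and 116 CPM in CKO and 225 and 179.6 CPM in WT. It fell by 0.93 ± 0.15 (SE) on the log2 scale, with an adjusted p of 0.0128 (edgeR's quasi-likelihood test) that stayed under 0.05 whichever library was left out. Insr, the insulin receptor, had 59.2 and 61.3 CPM in CKO and 102 and 87.1 CPM in WT, a log2 difference of -0.65 ± 0.12 (SE), with an adjusted p of 0.0205 (edgeR's quasi-likelihood test) that was 0.128 without WT A. Both receptors bind Grb10, whose own mean was lower in CKO without a call. Plaur, the urokinase receptor and a binding partner of Igf2r, had 34.6 and 33.9 CPM in CKO and 22.0 and 25.2 CPM in WT, a log2 difference of 0.54 ± 0.13 (SE; adjusted p = 0.0412, edgeR's quasi-likelihood test, and 0.269 without WT A and 0.143 without WT B). Plaur was also not called with limma-voom (0.0586) or library size alone (0.0573).

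Among relatives of Slc38a4, the transporter gene Slc38a6 had 17.9 and 30.0 CPM in CKO and 11.4 and 11.3 CPM in WT, a log2 difference of 1.08 ± 0.24 (SE; adjusted p = 0.0458, edgeR's quasi-likelihood test). Slc38a9, whose product senses arginine at the lysosome, had 7.73 and 7.98 CPM in CKO and 12.4 and 14.6 CPM in WT, a log2 difference of -0.79 ± 0.17 (SE; adjusted p = 0.0351, edgeR's quasi-likelihood test). The called genes of this family lay on opposite sides of WT. Without CKO B, WT A or WT B neither was called, with adjusted p-values of 0.0502, 0.146 and 0.220 for Slc38a6 and of 0.0516, 0.097 and 0.267 for Slc38a9. Slc38a6 was also not called with limma-voom (0.0698), RLE size factors (0.055) or a mean CPM of at least 1 (0.0633). None of the 9 tested partners of Rasgrf1, the 6 of Impact, the 9 of Inpp5f, the 5 of Grb10, the 2 of Plagl1 or the 5 of Zrsr1 was called, and at an unadjusted p under 0.05 there were 1, 3, 0, 2, 0 and 0 of them in the same order of genes, against 25.2% of all tested genes. DESeq2 called the Grb10 partner Gigyf1 among these, and limma-voom called none.

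**Figure D4:**
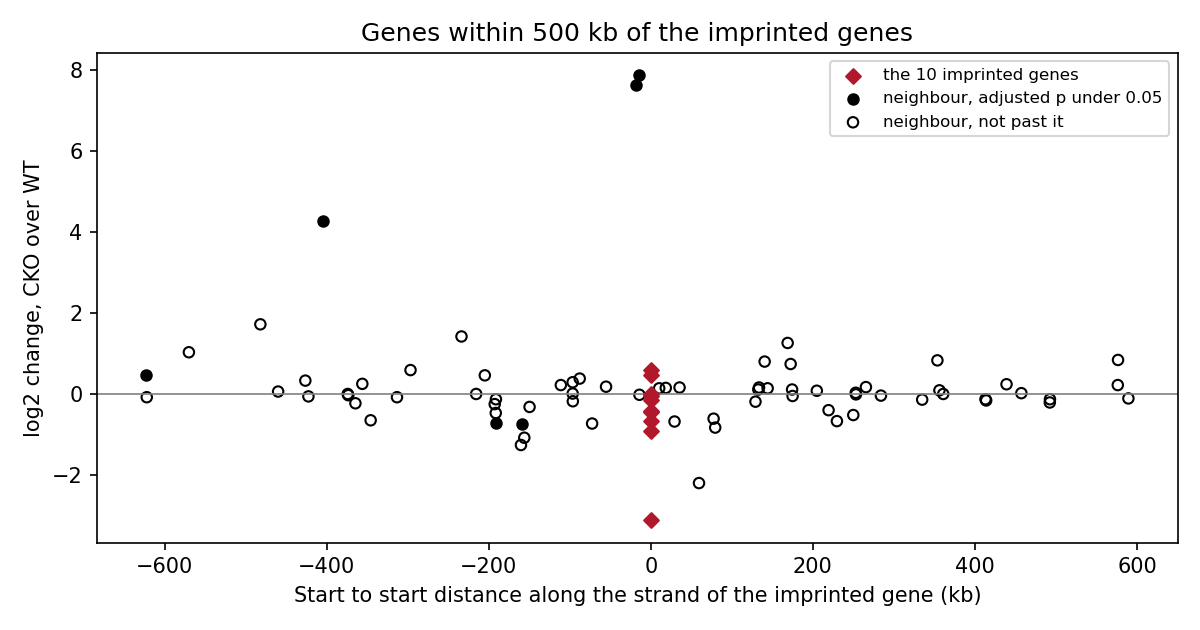
Log2 change of genes within 500 kb of the imprinted genes against the distance between starts, with the imprinted genes themselves at distance 0. Most neighbours lie near 0, and a pair of genes upstream of Inpp5f stands highest, at fitted values that depend on the prior count because WT had 3 reads or fewer.

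Within 500 kb of the 10 genes lay 148 other genes with reads. Of the 73 tested, 4 were higher and 2 lower, or 8.22%, and their median log2 difference was -0.01. This was close to the 7.61% called and the median of -0.01 over all tested genes. Of these 6, 3 were at the Inpp5f locus, where 16 neighbours were tested. Gm45121, a long intergenic noncoding RNA on the minus strand that starts 18.0 kb before Inpp5f (chr7:128590926-128593343), had 217 reads in CKO A and 408 in CKO B, against 1 in WT A and 2 in WT B. Over each genotype this was 625 reads in CKO and 3 in WT, a ratio of 208 after scaling (exact 95% interval 70.7 to 1009.6, counting error only), with an adjusted p of 0.0028 (edgeR's quasi-likelihood test). It was called whichever library was left out. Gm7258, an annotated processed pseudogene on the same strand (chr7:128595979-128596278), had 21 and 36 reads in the CKO libraries and 0 in either WT library, so it was at least 18.9-fold higher in CKO taking 3 reads over both WT libraries as the limit that a count of 0 allows. Reads of a pseudogene may belong to its parent gene. Its adjusted p was 0.0139 (edgeR's quasi-likelihood test), and 0.0508 without CKO B and 0.0546 without WT B.

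The Inpp5f locus thus held a called fall of Inpp5f beside called rises upstream on the opposite strand. Cox6a2, which encodes a cytochrome oxidase subunit of heart and skeletal muscle, lies farther off and had 23 and 20 reads in the CKO libraries, against 0 and 2 in the WT libraries. The scaled ratio was 21.4 (exact 95% interval 5.58 to 183, counting error only; adjusted p = 0.0266, edgeR's quasi-likelihood test, and between 0.074 and 0.115 when any library was left out). At the other loci Agpat4, a lipid acyltransferase gene near Igf2r, had 43.2 and 42.8 CPM in CKO and 31.5 and 30.7 CPM in WT (log2 difference 0.47 ± 0.11 SE; adjusted p = 0.0416, edgeR's quasi-likelihood test). Ino80d near Zdbf2, which encodes a subunit of the INO80 chromatin remodeller, had 46.2 and 60.6 CPM in CKO and 92.7 and 88.1 CPM in WT (log2 difference -0.76 ± 0.15 SE; adjusted p = 0.0222, edgeR's quasi-likelihood test). Pced1b near Slc38a4 had 7.8 and 8.2 CPM in CKO and 13.8 and 12.7 CPM in WT (log2 difference -0.73 ± 0.17 SE; adjusted p = 0.039, edgeR's quasi-likelihood test). These 3 calls were lost without WT A (adjusted p = 0.209, 0.0747 and 0.245 for Agpat4, Ino80d and Pced1b) and without WT B (0.267, 0.0894 and 0.178), and that of Pced1b also without CKO A (0.063) and without CKO B (0.0563). Agpat4 was also not called with limma-voom (0.0601) or library size alone (0.0532), nor Pced1b with limma-voom (0.0501). No neighbour was called among the 6 tested at Rasgrf1, 4 at Impact, 8 at Plagl1, 6 at Grb10 and 7 at Zrsr1, and 1, 0, 0, 2 and 0 of them had an unadjusted p under 0.05, against 25.2% of all tested genes. DESeq2 called Tmed3 at Rasgrf1 and Ddc at Grb10, and limma-voom called none of these neighbours.

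The genes most like Rasgrf1 in their pattern were sought among 13322 named tested genes, by the Euclidean distance between log2 CPM values centred over the 4 libraries. They were Kcna6 at a distance of 0.464, Ccdc3 at 0.595 and Dnah11 at 0.775. Kcna6 and Ccdc3 were called lower, and Dnah11 was not called (adjusted p = 0.0788, edgeR's quasi-likelihood test). Kcna6, a potassium channel gene, had 2.25 and 1.04 CPM in CKO and 12.1 and 14.4 CPM in WT, and Ccdc3 had 63.8 and 33.6 CPM in CKO and 317 and 349.8 CPM in WT. For Impact the nearest were Plscr1 at 0.0436, Pcdhga4 at 0.0460 and Rps2-ps10 at 0.0549. None of these was called (adjusted p = 0.242, 0.162 and 0.395 in that order, edgeR's quasi-likelihood test). Plscr1, a phospholipid scramblase gene, had 2.74 and 3.32 CPM in CKO and 2.06 and 1.81 CPM in WT. Likeness over 4 libraries is a description, and distances are smaller for small changes.

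**Figure D5:**
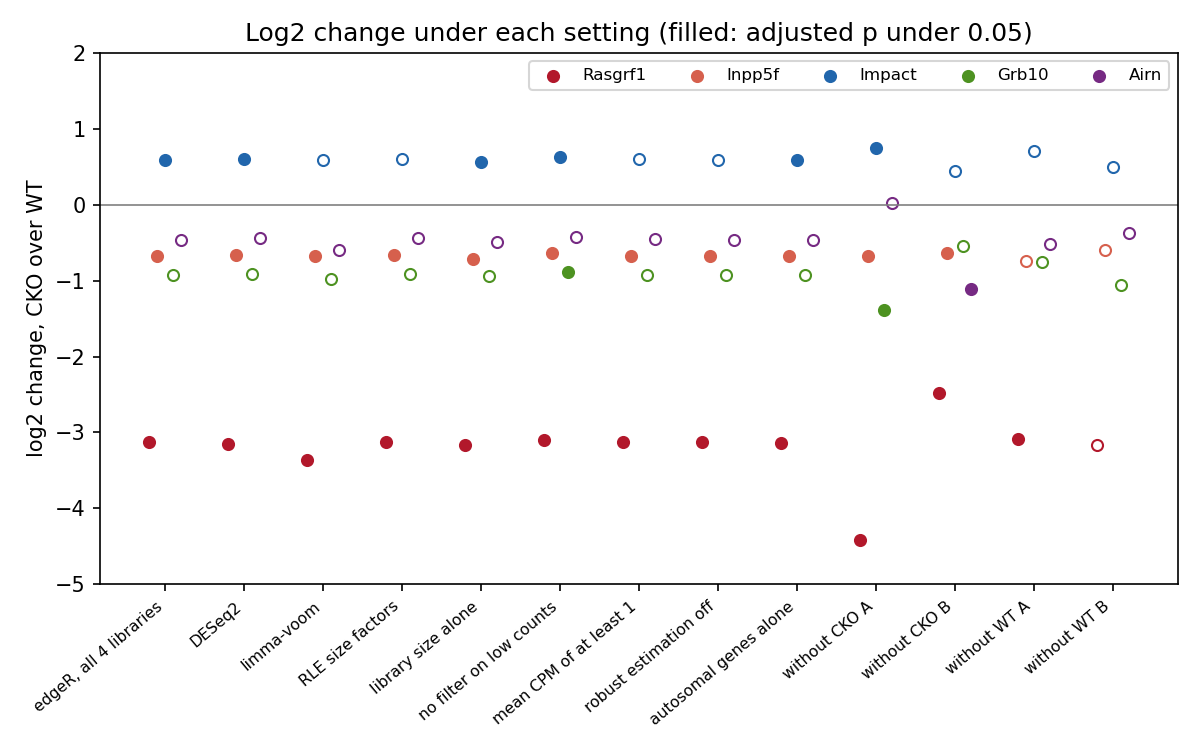
Log2 change of Rasgrf1, Inpp5f, Impact, Grb10 and Airn in the fit reported here and in 12 other settings, with filled points where the adjusted p was under 0.05. Rasgrf1 was called in 11 of the 12, Inpp5f in 10, Impact in 5, Grb10 in 2 and Airn in 1.

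These counts were read against the share of all tested genes called in the same setting. Among the 10 imprinted genes, 3 were called with DESeq2 (10.2% of all genes), 2 with limma-voom (5.59%), 2 with RLE size factors (6.85%) and 4 with library size alone (8.47%). There were 5 without a filter on low counts (7.87%), 2 among genes with a mean CPM of at least 1 (6.84%), 2 with robust estimation off (6.43%) and 3 with autosomal genes alone (7.37%). With a library left out, 5 were called without CKO A (11.3%), 3 without CKO B (6.42%), 1 without WT A (3.64%) and 0 without WT B (2.14%), where 6 had an unadjusted p under 0.05 against 15.7% of all genes.

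By known methylated copy, 1 rise was called among 4 genes with a methylated maternal promoter. Further calls were 1 fall of Inpp5f, 0 changes among 2 maternally expressed genes and 1 fall among 2 genes with methylation on the transcribed paternal copy. Over all tested genes 4.85% were called higher and 2.75% lower, and groups this small cannot be read against these shares. The rise of Impact was called in 5 of 12 other settings. The authors' deposited table lists, by its own test, log2 changes of -3.10 for Rasgrf1 (adjusted p = 6.49e-06), -0.64 for Inpp5f (0.0151) and 0.63 for Impact (0.0282). Of the 31247 genes in the authors' deposited table, 4.3% have an adjusted p under 0.05.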

How the data were processed

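RNA of sorted Pdgfrb-GFP cells was sequenced in 2 CKO and 2 WT libraries. The authors deposited raw counts of reads per gene. Per the submitters' processing notes, the tools included STAR, FastQC 0.11.8, Trimmomatic 0.36, cutadapt 2.5 and edgeR 3.28.1, on GRCm38.p6. The counting tool and its strand setting were not given in the sources used here. The authors also deposited a p-value, an adjusted p-value and a log2 fold change for each gene, quoted only as theirs. Another 4 columns of per-sample values were not used. The columns of counts say Control or Mutant, taken as WT and CKO, and carry no replicate number, so libraries have letters that pair nothing. Their names open with a number shared by CKO A, CKO B and WT B but not WT A, and what it marks is not stated, so the fit without WT A is also the comparison within that number.

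Genes were kept by filterByExpr (minimum count of 10), scaled by TMM and tested with glmQLFit and glmQLFTest, robust, in edgeR 4.0.16 (R 4.3.3), with Benjamini-Hochberg adjustment over 15210 genes and a threshold of 0.05. The biological coefficient of variation was 0.160, and 1 read corresponded to 0.0377 to 0.0439 CPM. Standard errors were obtained by dividing the log2 change by the root of the F statistic. Replicates differed by more than sampling noise (chi-square per degree of freedom 22.2 in CKO and 11.3 in WT); whether lungs came from separate litters is not stated, so that p-values reflect only how these libraries spread. Counting error alone is covered by intervals and floors, since PCR copies of a molecule are not independent. GENCODE M21 gave coordinates for 31171 genes (99.8%). RPKM uses the union of exons, since the deposited gene length equals, within 1%, the sum over transcripts in 96.7% of genes. Scripts were tested on simulated data. The genes and lists were chosen with earlier results of these data known. Named genes are the 10, Dnmt1, Pdgfrb, imprint protectors (Dppa3 was not analysed here), up to 8 called genes per list, overlapping genes, and the 3 most alike of Rasgrf1 and Impact; the authors' values, H19, genes called by other tools and genes named from marker lists were added after their values were seen.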

Additional observations from a re-analysis of the deposited data

How the results depend on the processing

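The alternatives were each library left out, autosomal genes alone, robust estimation off, DESeq2 1.42.0, limma-voom (limma 3.58.1), scaling by RLE or by total reads, genes with a mean CPM of at least 1, and every gene with reads. Without a filter on low counts 2459 genes were called over the table, 5 of the 10 imprinted genes (Grb10 and Zrsr1 added), and 28 partner, neighbour and other imprinted genes in place of 13. DESeq2 called 23 in those lists. With each library left out, calls ran from 339 to 1842 over the table, from 0 to 5 among the 10, and from 7 to 23 in the lists; the lone library of a genotype was then assumed to vary like those of the other. The 0 came without WT B; without WT A only Rasgrf1 was called. Impact missed the threshold with limma-voom (adjusted p = 0.0682), RLE size factors (0.0518), a mean CPM of at least 1 (0.0532) and robust estimation off (0.055). Directions turned only for genes that were not called in the fit with all libraries, filtered and scaled by TMM. Plagl1 was 0.03 without the filter. With a library left out Plagl1 ran from -0.25 to 0.23, Airn from -1.11 to 0.02, Igf2r from -0.29 to 0.25 and Zdbf2 from -1.04 to 0.44. Rasgrf1, Inpp5f, Impact, Grb10, Zrsr1 and Slc38a4 kept their direction in all 12. The causes were not tested. Rasgrf1 and Zdbf2 had at most 100 reads in any library, and each genotype had 2 libraries. No paired analysis was possible because the count columns carry no replicate number.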
